A study of Mus musculus with 20 samples.

Results

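Excitatory-specific enhancer regions without EGR1 are stretches of the mouse genome that carried the enhancer mark H3K4me1 and the activity mark H3K27ac in nuclei sorted as excitatory neurons, had no H3K4me1 peak in nuclei sorted as inhibitory neurons, overlapped H3K27ac that was seen in excitatory nuclei alone, and had no EGR1 peak in any library. They were chosen by merging the overlapping peaks of the 4 H3K4me1 libraries into 472241 union regions on chromosomes 1 to 19 and X. Of these, 61575 had a peak in both excitatory and neither inhibitory H3K4me1 library. A total of 8314 of them overlapped a H3K27ac union region that was likewise present in both excitatory and neither inhibitory library. The rule asks for 1 such H3K27ac region, and 77 of the regions described here (3.99%) also touched another H3K27ac peak from an inhibitory library. EGR1 peaks were absent from 1929 of the 8314 regions (23.2%), and these 1929 regions, 2.70 Mb in all and 0.408% of the union regions, are described here. The other 6385 regions overlapped an EGR1 peak and served as their EGR1-positive counterparts. The mirror set, with the neuron types exchanged, held 1310 regions, of which 1064 (81.2%) had no EGR1 peak. Since H3K4me1, H3K27ac and EGR1 peaks chose the regions, these are given as a description, and only H3K27me3 and H3K4me3 were tested.

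The study applied CUT&RUN, in which an antibody directs a nuclease to cut out nearby chromatin for sequencing, to nuclei isolated from whole brain of 8-week-old mice and sorted by flow cytometry. All 20 libraries came from the genotype Sun1 f/f | Emx1Cre (+). It names Sun1, a nuclear envelope gene, and a Cre recombinase driven by Emx1, a gene of the dorsal forebrain. The Cre thus acts in 1 lineage of the brain from which the nuclei came. The genotype alone does not tell what the Sun1 f/f allele carries. The 10 groups of 2 libraries were excitatory and inhibitory nuclei, each profiled with antibodies against H3K4me1, H3K27ac, H3K4me3, H3K27me3 and EGR1. The sources used here do not give the gate that separated the neuron types. The labels do not say that replicates came from separate animals, so p-values measure the spread between these libraries, which may be technical.

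Enhancers are DNA elements that raise transcription of genes at a distance. H3K4me1 marks enhancers whether or not they are in use, H3K27ac marks those in use, H3K4me3 marks active promoters and the strongest enhancers, and H3K27me3 is laid down by the Polycomb complex over genes and elements that are kept silent. EGR1 is a zinc-finger transcription factor that neurons induce with activity, and it binds GC-rich DNA at promoters and at enhancers.

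The depth of each library is unknown, since the files are peak lists, and peaks per library on these chromosomes ranged from 49899 in inhibitory EGR1 library 1 to 321846 in excitatory H3K4me1 library 1. The excitatory H3K27ac libraries, on which the selection rests, shared few bases, with a Jaccard index (shared over all covered bases) of 0.113 against 0.315 for the inhibitory pair. Marker genes were set against the labels. Of 34 tested excitatory forebrain neuron genes, H3K4me3 near the gene ends was higher in excitatory libraries for 6 and in inhibitory libraries for 1 (limma, adjusted p under 0.05). Of 31 tested inhibitory neuron genes, it was higher in excitatory libraries for 2 and in inhibitory libraries for 1, so the calls did not follow the inhibitory label. The median differences of this list leaned with the label, at −2.65 points for H3K4me3 (−0.126 over all genes) and 3.80 for H3K27me3 (0.0498 over all). At Gad2, H3K4me3 covered 3.64% and 10.9% in excitatory and 14.35% and 17.5% in inhibitory libraries (limma adjusted p = 0.0921). Of 22 tested thalamic, hypothalamic and brainstem neuron genes, H3K4me3 was higher in excitatory libraries for 0 and in inhibitory libraries for 7. For Slc17a7, the vesicular glutamate transporter of forebrain neurons, it covered 9.89% and 30.7% of the window in excitatory and 33.3% and 36.9% in inhibitory libraries, and that difference did not pass the test (adjusted p = 0.222). Cerebellar granule neuron genes moved with the inhibitory label. Their mean H3K27me3 cover was 22.8% and 24% in excitatory against 5.61% and 6.22% in inhibitory libraries, and H3K4me3 was higher in inhibitory libraries for 5 of 18 tested and in excitatory libraries for 0. The part of such nuclei in the results below was not tested. In bulk nuclei, fewer marked cells and less mark per cell cannot be told apart.

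Few of the regions lay at a gene's start, and the sequences of some that did are shown because the EGR1 motif can be read in them where no EGR1 peak lay. Among the RefSeq promoters of GRCm38.p6 (250 bases before to 50 after a start), 27 promoters of 26 genes overlapped 26 of the regions (1.35%, against 2.83% of the EGR1-positive counterparts), and 17 lay wholly inside. The median GC content of these promoters was 48.3%, against 53% for all 32619 promoters, with a median of 3 against 7 CpG dinucleotides. The 204 promoters that overlapped EGR1-positive counterparts were alike, with medians of 48.7% and 4. Only 7 of the 26 genes code for proteins. The promoters of Slc5a11 and Cpne4, each wholly inside a region, and of Nol4l and Cabp7, which hold the letters of the EGR1 core, are printed 5′ to 3′, with capitals for matches on either strand to the EGR1 core GCGNGGGCG or the E-box CAGCTG.
Slc5a11 promoter, chr7:123214616-123214915, plus strand: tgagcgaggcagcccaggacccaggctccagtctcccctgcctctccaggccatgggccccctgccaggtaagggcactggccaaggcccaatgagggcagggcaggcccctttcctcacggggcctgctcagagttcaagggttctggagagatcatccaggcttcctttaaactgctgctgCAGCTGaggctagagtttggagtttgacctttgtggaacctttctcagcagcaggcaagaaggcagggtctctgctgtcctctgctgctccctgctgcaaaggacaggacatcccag
Cpne4 promoter, chr9:104587808-104588107, plus strand: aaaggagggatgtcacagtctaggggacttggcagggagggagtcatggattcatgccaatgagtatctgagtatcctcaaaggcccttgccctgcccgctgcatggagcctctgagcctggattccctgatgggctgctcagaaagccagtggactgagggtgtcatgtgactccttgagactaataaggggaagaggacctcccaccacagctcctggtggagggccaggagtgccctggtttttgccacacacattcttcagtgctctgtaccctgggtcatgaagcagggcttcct
Nol4l promoter, chr2:153529922-153530221, minus strand: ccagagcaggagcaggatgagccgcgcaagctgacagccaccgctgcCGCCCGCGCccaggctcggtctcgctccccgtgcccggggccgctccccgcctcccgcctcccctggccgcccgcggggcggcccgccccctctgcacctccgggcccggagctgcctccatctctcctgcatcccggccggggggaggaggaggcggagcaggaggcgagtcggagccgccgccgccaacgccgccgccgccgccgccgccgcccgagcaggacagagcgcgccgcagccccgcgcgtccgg
Cabp7 promoter, chr11:4747130-4747429, minus strand: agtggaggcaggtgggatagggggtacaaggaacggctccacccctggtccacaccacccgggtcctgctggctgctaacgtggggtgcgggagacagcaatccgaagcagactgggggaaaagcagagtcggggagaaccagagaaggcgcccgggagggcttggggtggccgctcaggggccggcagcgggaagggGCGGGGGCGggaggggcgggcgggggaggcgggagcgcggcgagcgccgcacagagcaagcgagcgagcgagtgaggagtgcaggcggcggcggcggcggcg

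The EGR1 core stood in 2 of the 27 promoters (7.41%), those of Nol4l and Cabp7. It stood in 5.59% of all promoters and in 0.980% of the 204 promoters at EGR1-positive counterparts. The Nol4l match lay inside the region and the Cabp7 match outside it. The E-box CAGCTG, a motif that neurogenic bHLH factors bind, was in 7 (25.9%), against 16.4% of all promoters. The E-box CAGATG was also in 7, against 17.1%, the AP-1 motif TGANTCA in 2, against 7.85%, and the CRE TGACGTCA in 0, against 1.80%. At the counterparts, CAGCTG was in 21.1% of promoters, CAGATG in 27.5%, TGANTCA in 12.7% and TGACGTCA in 0.980%. The searched motifs do not match the same letters.

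The 4 promoter regions differed in the marks that the rule did not use. At the Slc5a11 region (chr7:123213954-123215746, 1793 bases), which covers the start of a sodium/myo-inositol cotransporter gene, H3K4me3 was 0 in all 4 libraries and H3K27me3 covered 18.2% and 23.6% in excitatory and 26.6% and 45.8% in inhibitory libraries. At the Cpne4 region (chr9:104585798-104588652), at a gene for a copine, a calcium-dependent membrane-binding protein, H3K27me3 covered 34.2% and 31.6% in excitatory and 73.2% and 12.3% in inhibitory libraries, so the groups overlapped. The Nol4l region (chr2:153530077-153530741), 714 bases from the nearest EGR1 peak, had H3K4me3 over 64.4% and 59.5% in excitatory and 79.2% and 74.3% in inhibitory libraries and no H3K27me3. The Cabp7 region (chr11:4747394-4747873), at the gene of a neuronal calcium-binding protein, lay 323 bases from an EGR1 peak. It had H3K27me3 over 67.5% and 91.7% in inhibitory libraries and 0 in both excitatory ones, and H3K4me3 over 37.5% and 75.8% in excitatory against 0 and 7.08% in inhibitory libraries. Of the 4, the Cabp7 region alone had groups that did not overlap for both marks and excitatory cover above inhibitory for H3K4me3.

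The regions were mostly inside genes. Of the 1929, 1167 (60.5%) lay inside a protein-coding gene more than 2 kb from its ends, 650 (33.7%) between genes and 112 (5.81%) within 2 kb of a gene end. The EGR1-positive counterparts lay inside genes in 43.1% and between genes in 51.2% of cases, and all union regions in 51.8% and 38.8%. The median distance to a gene end was 45.9 kb, against 41.5 kb for the counterparts. The X chromosome was poorest in them, with 25 regions or 2.27 per 1000 union regions, followed by chromosome 14 with 3.23, and chromosome 12 was richest, with 111 regions or 5.18 per 1000.

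**Figure D1:**
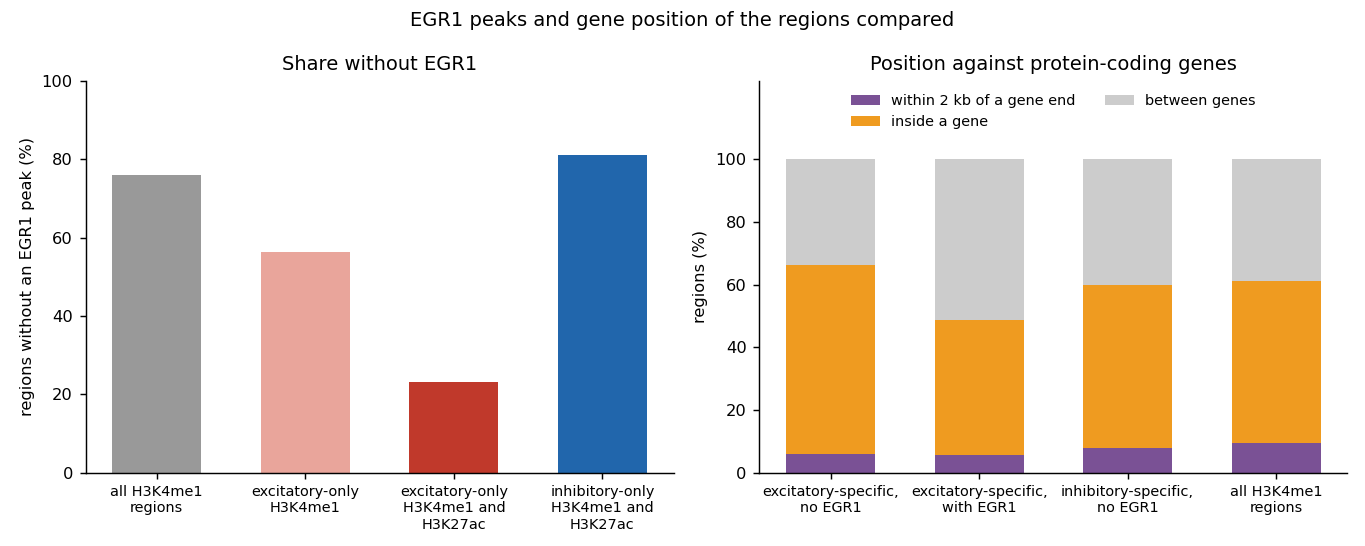
Left, bars give the percent of H3K4me1 union regions without an EGR1 peak, for all regions, for those seen only in excitatory libraries, for those that also have excitatory-only H3K27ac and for the inhibitory mirror set. Right, stacked bars give the percent of each set within 2 kb of a protein-coding gene's end, inside a gene or between genes. The share without EGR1 is 23.2% for excitatory-only H3K4me1 and H3K27ac against 76.0% for all regions, and 60.5% of the former lie inside genes against 43.1% of those with EGR1.

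Absence of an EGR1 peak was uncommon among active excitatory-specific regions and common elsewhere. It held for 76.0% of all union regions and for 56.4% of H3K4me1 regions seen only in excitatory libraries, against 23.2% where H3K27ac was excitatory-only as well. Wider regions have more room to meet an EGR1 peak. The median width was 641 bases over all union regions, against 1278 and 1721 for the excitatory sets without and with EGR1. Excitatory EGR1 lists held 93858 and 98534 peaks and inhibitory ones 49899 and 62412. The part of width and list length in these shares was not tested. EGR1 peaks were often near all the same. The median distance from a region to the nearest one was 4.57 kb, and 242 regions (12.5%) had one within 1 kb, 1031 (53.4%) within 5 kb and 33 (1.71%) none within 50 kb. The corresponding median over all union regions without EGR1 was 5.20 kb. The threshold of 1 shared base split some near neighbours, since the closest region lay 2 bases from an EGR1 peak and 23 lay within 100 bases, while 37 counterparts shared at most 100 bases with one, the least being 1 base. The median overlap of the counterparts was 613 bases.

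The regions without EGR1 were narrower and had lower H3K4me1 and H3K27ac values than those with EGR1. Their median width was 1278 bases (quartiles 920 and 1740, range 295 to 5538), against 1721 for the counterparts and 641 for all union regions. By the authors' deposited peak values, the median fold enrichment of H3K27ac was 2.64 and 2.60 in excitatory libraries 1 and 2, against 2.89 and 2.81 at the counterparts. For H3K4me1 it was 1.92 and 1.96 against 2.07 and 2.17. Each value is the highest of the peaks in a region, and a narrower region has less room to share a base with an EGR1 peak. These differences are thus a description, and the part of width in them was not tested. Few of the underlying peaks passed a false discovery rate. In the authors' deposited tables, the H3K27ac peak had a q-value under 0.05 at 21 regions (1.09%) in library 1 and 73 (3.78%) in library 2, with 0 regions passing in both. The number of regions moved with the strictness of the lists. With peaks at a −log10 p of at least 2 in every list, 151 regions met the rule, and with at least 3, 0 did. Leaving out excitatory library 1 of H3K4me1 and H3K27ac gave 21417 regions and leaving out library 2 gave 11717.

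The regions with the strongest H3K27ac in their weaker excitatory library lay in varied surroundings. The one at chr6:111194340-111196161 lies inside Grm7, the gene of the presynaptic metabotropic glutamate receptor mGluR7, 77.5 kb from any EGR1 peak. Its H3K27ac peaks had fold enrichments of 4.96 and 3.51 in the authors' deposited table, and its H3K27me3 cover was 0 in both excitatory libraries against 25.7% and 62.6% in the inhibitory ones. A region 1.84 kb from Prkra, a regulator of the RNA-dependent kinase PKR (chr2:76606113-76607376), had fold enrichments of 5.04 and 3.80, H3K4me3 over 23.0% and 14.5% in excitatory libraries and 0 in inhibitory ones, and no H3K27me3. At chr9:14069456-14071777, 204.5 kb from its nearest gene Sesn3, which encodes a stress-induced sestrin, H3K27me3 covered 0 in both excitatory and 23.2% and 70.9% in inhibitory libraries. At chr8:114109047-114110548, between genes with Nudt7 the nearest, all 4 libraries had H3K27me3, with 42.3% and 30.0% in excitatory and 40.7% and 71.0% in inhibitory nuclei. Of the 3 widest regions, the one of 5538 bases (chr13:106366327-106371864) lay 422.6 kb from Ipo11, the one of 4798 bases lay inside Edil3, which encodes an integrin-binding matrix protein, and the one of 4294 bases inside Erc2, which encodes a scaffold of the presynaptic active zone. In these 3 regions the only H3K27me3 was 10.7% of the widest in inhibitory library 1.

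The Polycomb mark H3K27me3 was more extensive over these regions in inhibitory than in excitatory nuclei. It covered 7.17% and 10.4% of their bases in excitatory libraries 1 and 2 and 18.8% and 16.7% in inhibitory libraries 1 and 2, so the groups did not overlap. The mean was 8.81% ± 2.32 in excitatory and 17.7% ± 1.43 in inhibitory libraries (SD, n = 2 each), 2.01-fold higher in the latter, and the two-sided exact permutation p was 0.333, the smallest that 2 against 2 libraries can give. Inhibitory libraries held more of the mark over all union regions as well, with 16.3% and 14.9% against 9.15% and 10.9%, which is 1.56-fold. With each library divided by its share of all union regions, the difference kept its direction, at −0.261 (exact permutation p = 0.333). The inhibitory-specific regions without EGR1 went the other way, with 9.06% and 9.05% in excitatory and 7.05% and 6.26% in inhibitory libraries.

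The EGR1-positive counterparts had more inhibitory H3K27me3 than the regions without EGR1. At the counterparts the mark covered 7.74% and 11.3% in excitatory and 27.1% and 25.9% in inhibitory libraries, a 2.78-fold difference. The gap between neuron types was 8.07 percentage points smaller at the regions without EGR1, with an exact permutation p of 0.333 over the 4 libraries. The order held within classes of width. In the middle width class (1049.7 to 1562 bases), 16.7% and 23.4% of the regions without EGR1 overlapped a H3K27me3 peak in excitatory and 40.5% and 35.8% in inhibitory libraries. For counterparts of that width these were 21.8%, 27.9%, 51.7% and 48.4%.

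Counting regions rather than bases gave the same order. A H3K27me3 peak in both inhibitory and neither excitatory library was found at 192 regions (9.95%), against 5.63% of all union regions and 17.6% of the counterparts. The opposite pattern was found at 31 regions (1.61%), against 2.26% of all union regions. No library had H3K27me3 at 857 regions (44.4%) and all 4 had it at 140 (7.26%). The order held inside genes and between them. Between genes, 27.5% and 33.5% of the regions had a peak in excitatory and 50.5% and 46.2% in inhibitory libraries, and inside genes 11.7% and 16.8% against 33.3% and 30.2%.

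**Figure D2:**
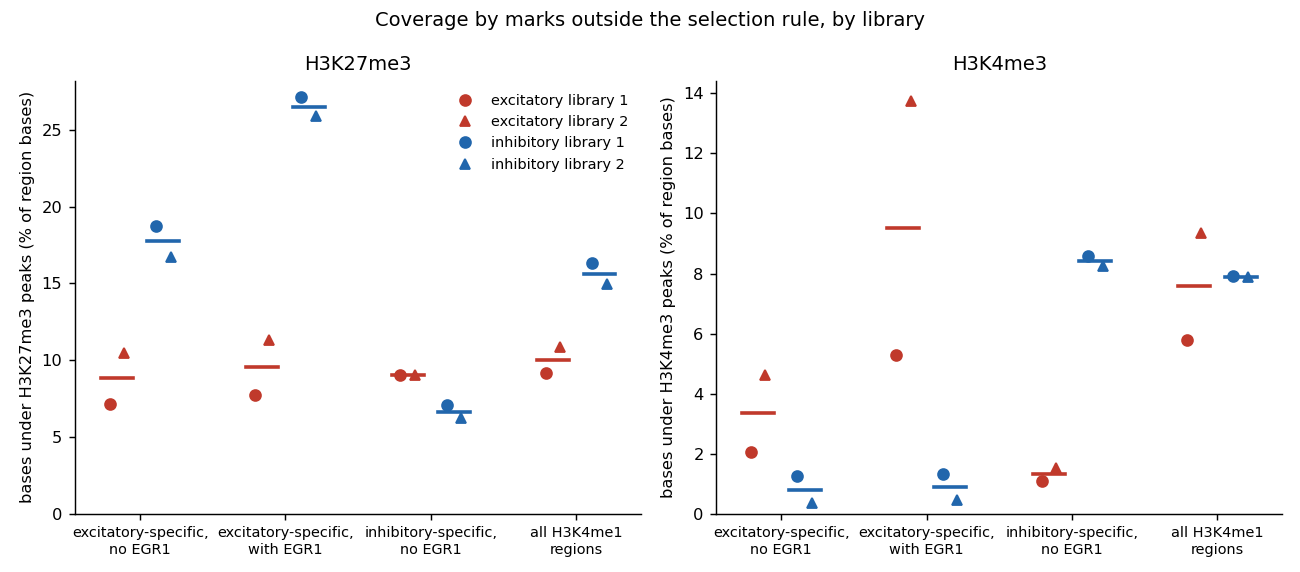
Points give the percent of all bases of a region set under H3K27me3 peaks (left) or H3K4me3 peaks (right) in each library, and lines the mean of 2 libraries, red for excitatory and blue for inhibitory nuclei. At the regions without EGR1, H3K27me3 is at 7.17% and 10.4% in excitatory against 18.8% and 16.7% in inhibitory libraries, and H3K4me3 at 2.07% and 4.62% against 1.25% and 0.366%.

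The promoter mark H3K4me3 was sparse over the regions and higher in excitatory nuclei. It covered 2.07% and 4.62% of their bases in excitatory and 1.25% and 0.366% in inhibitory libraries. The lower excitatory value exceeded the higher inhibitory one by less than the excitatory libraries differed from each other. The mean was 3.34% ± 1.80 in excitatory and 0.806% ± 0.622 in inhibitory libraries (SD, n = 2 each), 4.15-fold higher in the former, with a two-sided exact permutation p of 0.333. Without excitatory library 1 the difference was 3.81 percentage points and without excitatory library 2 it was 1.26, so its size moved with library 2. Over all union regions the groups overlapped, with 5.80% and 9.36% against 7.91% and 7.88%. The inhibitory-specific regions without EGR1 went the other way and were less sparse in their own neuron type. H3K4me3 covered 1.10% and 1.52% of them in excitatory and 8.58% and 8.26% in inhibitory libraries.

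Regions with EGR1 carried more H3K4me3 in excitatory nuclei than those without. The counterparts had 5.29% and 13.7% in excitatory and 1.31% and 0.451% in inhibitory libraries, a 10.8-fold difference. The gap between neuron types at the regions without EGR1 minus that at the counterparts was −6.10 percentage points (exact permutation p = 0.333), and −3.15 points without excitatory library 2. H3K4me3 in both excitatory and neither inhibitory library marked 54 regions (2.80%), against 1.49% of all union regions and 13.7% of the counterparts. The opposite pattern marked 2 regions (0.104%), against 1.89% of all union regions and 15.9% of the inhibitory-specific regions without EGR1. No library had H3K4me3 at 1263 regions (65.5%), and 576 (29.9%) had neither H3K4me3 nor H3K27me3 in any library, against 11.1% of the counterparts and 39.1% of all union regions.

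**Figure D3:**
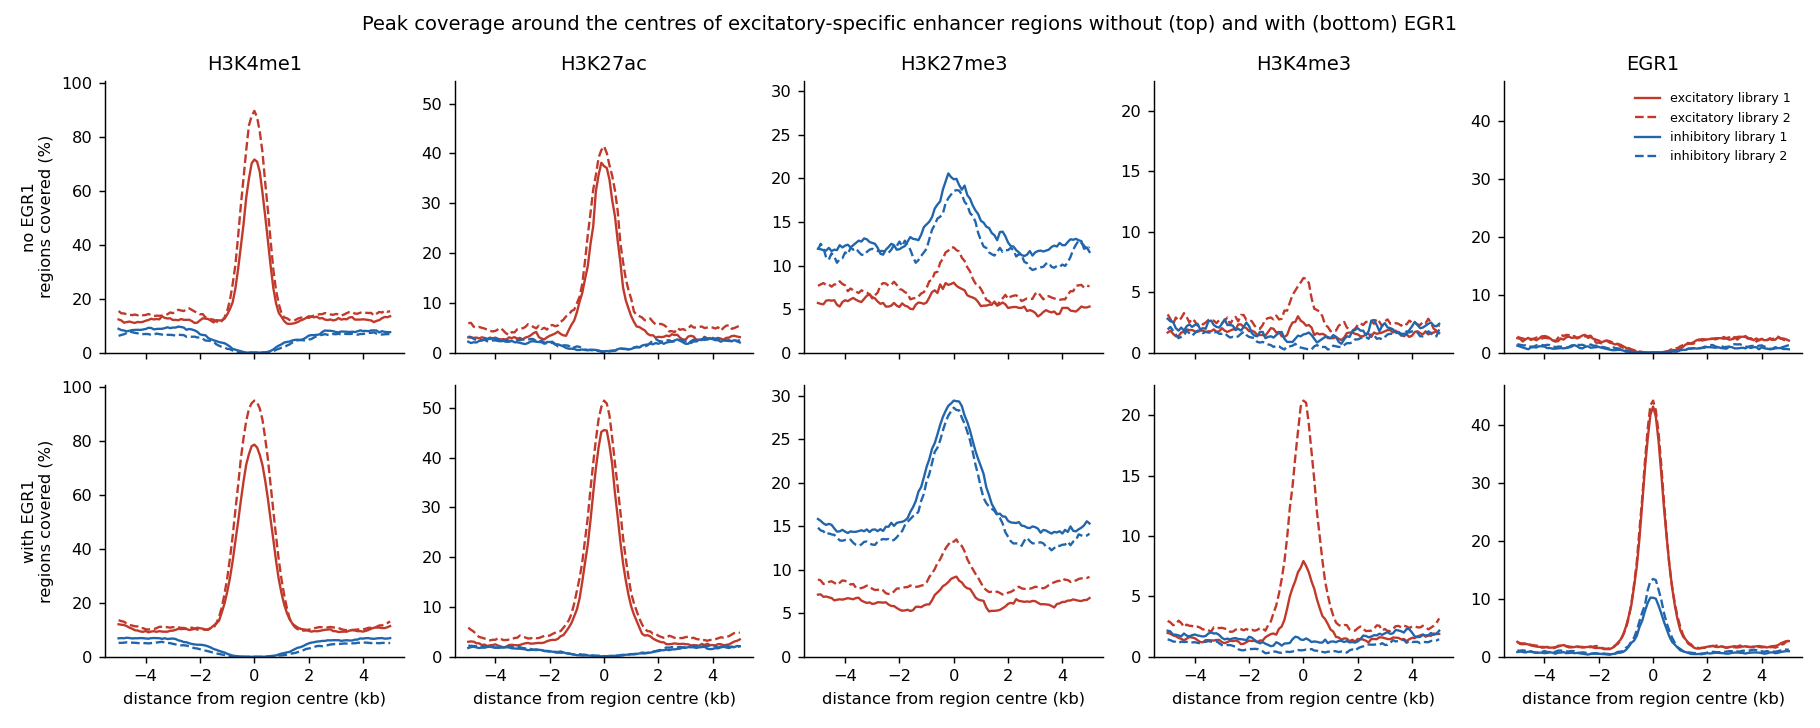
Lines give the percent of regions under a peak at each distance from the region centre in kb, per library, for 5 antibodies, at excitatory-specific enhancer regions without EGR1 (top) and with EGR1 (bottom), with shared vertical scales within a column. The EGR1, H3K4me1 and H3K27ac panels show what the selection used. H3K27me3 in inhibitory libraries reaches 19.9% and 18.6% at the centre of the regions without EGR1 and 29.4% and 28.6% at those with EGR1.

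H3K27me3 in every library, and H3K4me3 in the excitatory libraries only, covered more regions at the centre than at 5 kb. At the centre, 19.9% and 18.6% of the regions were under H3K27me3 peaks in inhibitory libraries, against 11.7% and 12.0% at 5 kb. In excitatory libraries these were 8.04% and 12.1% against 5.50% and 7.65%. H3K4me3 in excitatory library 2 was at 6.17% at the centre and 2.72% at 5 kb, and in excitatory library 1 at 2.49% and 1.63%. In the inhibitory libraries H3K4me3 was lower at the centre, with 1.5% and 0.363%, than at 5 kb, with 2.59% and 1.92%.

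Tested one by one in a 5 kb window, few regions passed. A region entered the fit of a mark with cover in at least 2 libraries, which 1044 regions (54.1%) met for H3K27me3 and 455 (23.6%) for H3K4me3, and a region with cover in 1 neuron type alone can pass that filter only by differing. The counts are thus a description. For H3K27me3, 0 regions were called by limma in either direction, as over all 245208 regions tested (0%). At an unadjusted p under 0.05, 180 were higher in inhibitory libraries (17.2%, against 11.1% of all) and 66 in excitatory libraries (6.32%, against 11.0%). For H3K4me3, 6 of 455 were higher in excitatory libraries (1.32%, near the 1.24% of all regions) and 1 in inhibitory libraries (1.17% of all were). At an unadjusted p under 0.05 these were 61 (13.4%, against 8.96% of all) and 6 (1.32%, against 7.76%). Of 2315 counterparts tested for H3K4me3, 108 were called higher in excitatory and 0 in inhibitory libraries.

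The H3K4me3 calls were led by a region inside Cntnap5b, a gene of the contactin-associated protein family (chr1:99773761-99775438). H3K4me3 covered 49.2% and 53.1% of its window in excitatory and 10.1% and 13.3% in inhibitory libraries, with a normalized difference of 40.4 ± 3.25 points (SE; limma adjusted p = 9.5e-04). The next were inside Ccdc88a, an actin-binding scaffold gene (chr11:29375908-29377066), with 44.3% and 43.9% against 11.4% and 12.9%, and inside Pde8b, a cAMP phosphodiesterase gene (chr13:95218675-95221623), with 33.6% and 27.5% against 2.56% and 4.98%. One lay 1.46 kb from Cacng3, which encodes an auxiliary subunit of AMPA receptors (chr7:122669314-122670287), with 27.1% and 29.3% against 3.68% and 11.7% (adjusted p = 0.0314). The others were inside Cpeb1, a regulator of mRNA translation at synapses, and 282 kb from Fancl. The single region higher in inhibitory libraries lay inside Lhfp (chr3:53044982-53046474), with 0% and 3.68% in excitatory and 36.7% and 39.6% in inhibitory libraries (adjusted p = 0.0019). In the raw cover of these 7 windows the neuron types did not overlap. No region was called without quantile normalization, without the filter on cover, without inhibitory library 1, with a 2 kb window, with peaks at a −log10 p of at least 2, or with lists trimmed to equal numbers of their strongest peaks. Without excitatory library 1, 19 regions were called.

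The genes with the most regions were long. Of 21631 protein-coding genes, 1021 (4.72%) had at least 1 region in the gene body plus 5 kb on both sides, and 76 had 3 or more. These 76 genes had a median window of 632 kb, against 27.3 kb for all genes, so length moves with the count. Lrfn5 and Tenm2 had 9 each, and both encode adhesion proteins of the synapse. Csmd1, which encodes a complement-regulating membrane protein, and Lingo2, a leucine-rich repeat membrane protein, had 8, and Agbl4, a carboxypeptidase that trims glutamate chains from tubulin, Cntnap5a and Robo2, a receptor for the axon guidance cue Slit, had 7. Dlg2, which encodes the postsynaptic scaffold PSD-93, Erc2 and Etl4 had 6. Among genes with 5 or more, Lrfn5 was densest, with 2.61 per 100 kb, followed by Pde1a, a calmodulin-dependent phosphodiesterase, with 1.34, Csmd2 with 0.846 and the glutamate delta receptor Grid1 with 0.776. Lingo2, Cntnap5a and Lrfn5 had few EGR1-positive counterparts in the same windows (2, 1 and 2), while Csmd1 had 16 and Dlg2 12.

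The 9 regions of Lrfn5 and the 9 of Tenm2 differed in H3K27me3. Those of Lrfn5 spanned 233.8 kb of the gene (chr12:61564621-61798458), were 359 to 2678 bases wide and lay 3.97 to 35.2 kb from the nearest EGR1 peak. H3K27me3 touched 0 of them in each excitatory library, 1 in inhibitory library 1 and 0 in inhibitory library 2. Those of Tenm2 spanned 996.4 kb (chr11:36030869-37027268) and lay 0.697 to 13.8 kb from an EGR1 peak. H3K27me3 touched 0 of the 9 in each excitatory library and 2 and 4 in the inhibitory ones, with full cover in both at the region chr11:36351543-36352465. H3K4me3 touched 1 and 2 of the Lrfn5 regions in excitatory and 1 and 0 in inhibitory libraries, and 1 Tenm2 region, in excitatory library 2.

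Gene lists chosen for brain cell types and synaptic functions differed in how many of their genes held a region. Synaptic adhesion genes led with 14 of 24 (58.3%, median window 977 kb), headed by Cdh13, encoding T-cadherin, with 5 and by Cntn4, Nlgn1 and Nrxn3 with 4 each. Voltage-gated potassium channel genes followed with 10 of 22 (45.5%), headed by Kcnh7, of the ERG family, with 4 and by Kcnma1, Kcnq3 and Kcnq5 with 2 each, and glutamate receptor genes with 10 of 24 (41.7%), headed by Grid1 with 6, Grm7 with 4 and Gria3 and Grik4 with 3 each. The share over all genes was 4.72%, over shorter windows. Per 100 kb of window, synaptic adhesion genes held 0.172 regions, potassium channel genes 0.330 and glutamate receptor genes 0.271, against 0.108 over all genes. The lead of the synaptic adhesion genes was shared by the other kinds of region, since 54.2% of them held an EGR1-positive counterpart and 37.5% an inhibitory-specific region without EGR1. Among potassium channel genes 27.3% held an EGR1-positive counterpart and 9.09% an inhibitory-specific region without EGR1, for glutamate receptor genes these were 45.8% and 4.17%, and over all genes 10.4% and 2.90%.

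Markers of excitatory and of inhibitory neurons held regions at similar shares, both above the 4.72% of all genes, but at different densities. Per 100 kb of window, excitatory forebrain neuron genes held 0.165 regions and inhibitory neuron genes 0.0845, against 0.108 over all genes. Of 35 excitatory forebrain neuron genes, 5 held one (14.3%, median window 59.3 kb): Ldb2, a cofactor of LIM-domain transcription factors, with 2, and Cux2, Pcp4, Rasgrf2 and Sv2b with 1 each, where Sv2b was named after its values were seen. Of 34 inhibitory neuron genes, 4 held one (11.8%, median window 26.6 kb), namely Erbb4, Gad1, Kcnc2 and Reln, although the regions were chosen for H3K4me1 and H3K27ac seen in excitatory libraries alone. Inhibitory-specific regions without EGR1 were found at 0 of the excitatory and 1 of the inhibitory neuron genes. The oligodendrocyte gene Mobp, which encodes a myelin protein, held 1. None of the 14 astrocyte, 13 microglia, 12 vascular, 38 HOX and 14 housekeeping genes held a region. The remaining lists gave 1 of 18 striatal, 1 of 24 thalamic, hypothalamic and brainstem, 1 of 18 cerebellar granule neuron, 3 of 17 GABA receptor and transporter, 1 of 26 activity-regulated and 2 of 16 pan-neuronal genes. Slc17a7, Gad2 and Egr1 held 0.

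**Figure D4:**
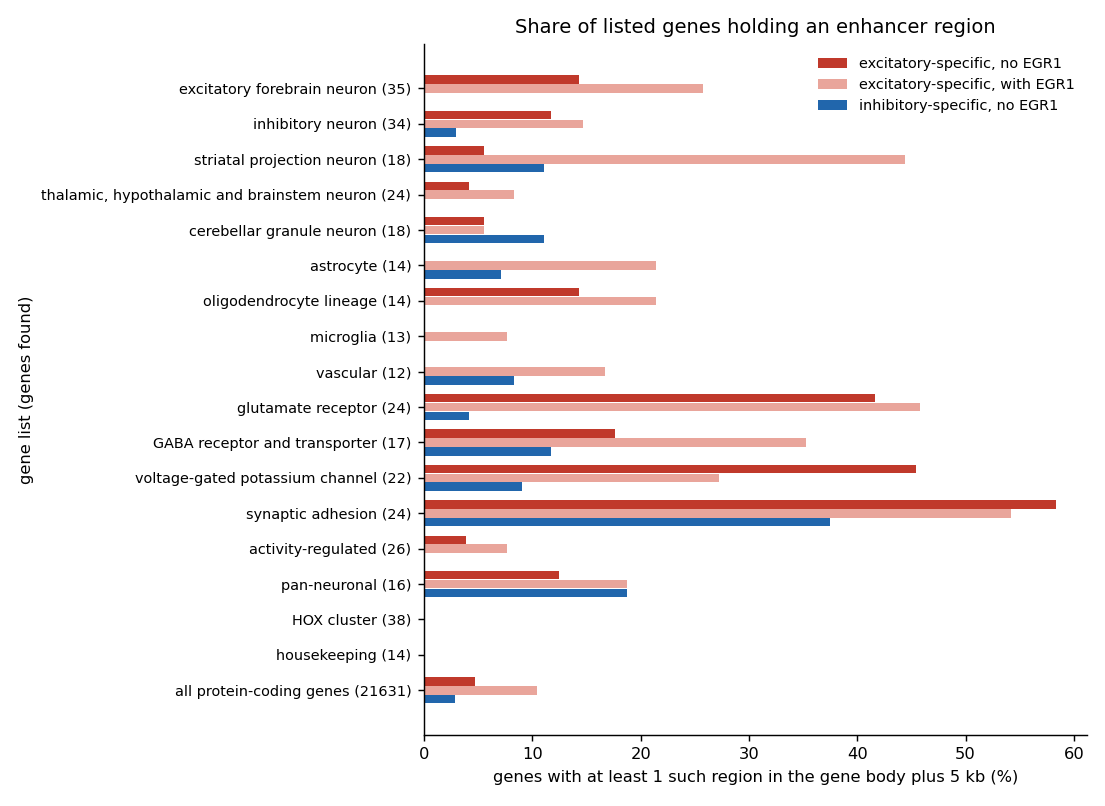
Bars give the percent of genes in each list with at least 1 region of 3 kinds in the gene body plus 5 kb on both sides, with the number of genes found in brackets. Synaptic adhesion genes lead for excitatory-specific regions without EGR1, with 58.3%, against 4.72% of all protein-coding genes, whose windows are shorter.

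Most genes with 3 or more of the regions had lower H3K27me3 values over their bodies in excitatory libraries, although none passed the adjusted test. Sh3kbp1, an endocytic adaptor gene on the X chromosome, had H3K27me3 over 0.220% and 0.636% of its window in excitatory and 25.1% and 24% in inhibitory libraries. For Csmd2 these were 2.41% and 3% against 25.1% and 25.7%, and for Grm7 1.09% and 4.67% against 25% and 25.7%. Efnb2, encoding the guidance ligand ephrin-B2, and Fat3, encoding an atypical cadherin, were alike, with 2.45% and 4.68% against 25.2% and 24.2%, and with 1.15% and 2.85% against 23.5% and 21.2%. In all 5 genes the neuron types stood far apart, with normalized differences from −21.3 (Sh3kbp1) to −17.0 points (Fat3), and each missed the threshold with a limma adjusted p of 0.0555, the lowest that any gene reached. Tenm2, with 1.37% and 3.45% against 19% and 19.1%, and Csmd1, with 0.179% and 0.506% against 13.9% and 12.9%, had the same pattern (limma adjusted p = 0.0618 and 0.0567). Lrfn5 had little of the mark, with 0.171% and 0.531% against 2.24% and 1.36%. Its raw cover was lower in both excitatory libraries, whereas its quantile-normalized difference had the opposite sign, at 0.38 ± 0.473 points (SE; limma adjusted p = 0.638).

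Over the 76 genes with 3 or more regions, 75 entered the H3K27me3 fit. Of these 0 were called, as over all 15438 genes tested (0%), and at an unadjusted p under 0.05 49 were higher in inhibitory libraries (65.3%, against 15.2% of all genes) and 0 in excitatory libraries (against 13.7%). Their median normalized difference was −5.34 points, against 0.0498 over all genes, and 71 of the 75 were below 0. Of the 75, 3 had no cover in either excitatory library and could pass the filter only by differing. Genes with 3 or more EGR1-positive counterparts, some of which hold both kinds of region, were alike, with 55.5% of 247 higher in inhibitory libraries at that threshold and a median of −6.44 points. Among genes with a window of at least 300 kb, 63 had 3 or more regions and 324 had none. At the same unadjusted threshold 65.1% of the 63 were higher in inhibitory libraries, against 14.2% of the 324, and the median difference was −5.26 against 0.62 points. Without quantile normalization the medians were −8.43 for the 75 genes and −2.06 for all. Calls, all of them higher in inhibitory libraries, arose for 11 genes on the log2(percent + 1) scale and for 32 when testing only genes covered in all 4 libraries.

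H3K4me3 at the ends of these genes was higher in excitatory nuclei for some of them. At Dpp10, which encodes an auxiliary subunit of Kv4 potassium channels, it covered 30.6% and 30.1% of the window within 2 kb of the gene ends in excitatory and 2.30% and 0% in inhibitory libraries. At Dab1, the adaptor of reelin signalling, these were 23.1% and 25.7% against 0% and 2.25%, and at the presynaptic adhesion gene Nrxn3 22.8% and 25.1% against 2.30% and 2.25%. Both libraries of each type lay close together at these genes, and the normalized differences were 29.4 ± 2.27, 22.4 ± 2.29 and 21.3 ± 2.16 points (SE; limma adjusted p = 0.0125 for each). The acid-sensing channel gene Asic2 had 33.2% and 30.0% against 11.4% and 5.86%, the GABA-A receptor subunit gene Gabrg3 24.8% and 23.1% against 4.60% and 2.90%, and Lingo2 30.8% and 38.3% against 13.6% and 19.1%. Iqcj, Samd5 and Ptprd, a synapse-organizing phosphatase gene, were called as well, with differences of 24.8, 19.4 and 17.8 points. So was Iqschfp, with 26.4% and 18.9% against 0% and 3.95%. Iqschfp shares a gene end with Iqcj, so cover at that end counts for both genes.

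**Figure D5:**
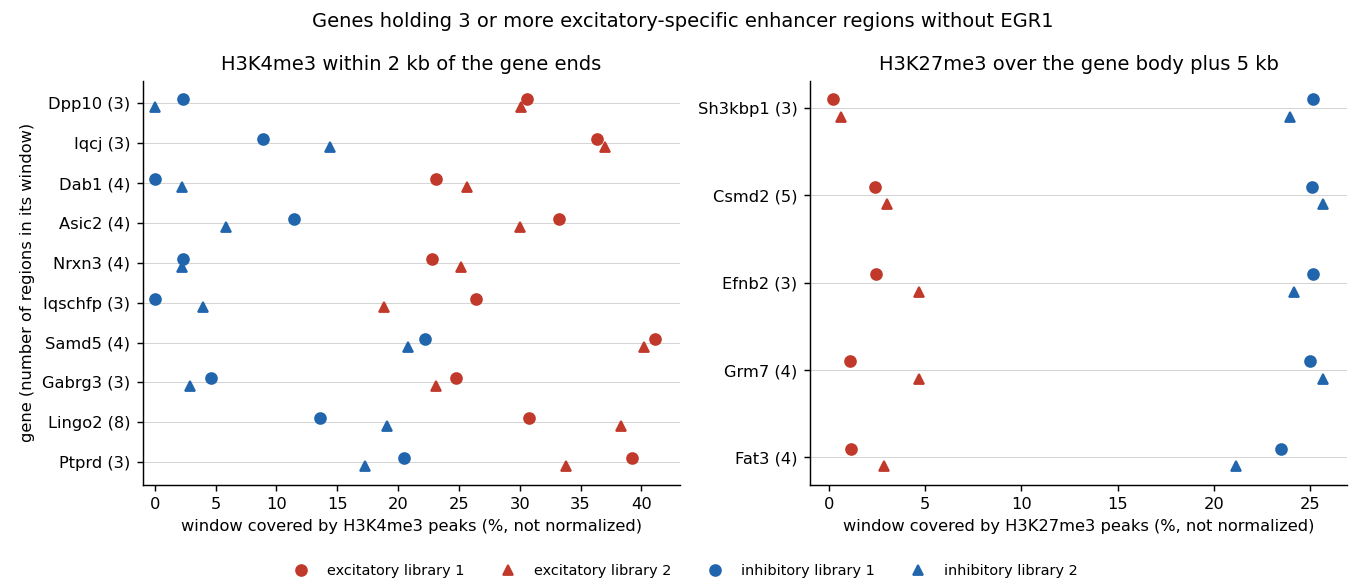
Points give the cover of a gene's window by peaks in percent, for each library and not normalized, for H3K4me3 within 2 kb of the gene ends (left) and H3K27me3 over the gene body plus 5 kb (right), with the number of regions per gene in brackets. At Dpp10 H3K4me3 is at 30.6% and 30.1% in excitatory against 2.30% and 0% in inhibitory libraries, and at Sh3kbp1 H3K27me3 is at 0.220% and 0.636% against 25.1% and 24%.

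Of the 76 genes, 69 entered the H3K4me3 fit, and 14 were called, each of them higher in excitatory libraries (1.80% of all 15685 genes were), while 0 were called in the other direction (1.22% of all). At an unadjusted p under 0.05, 34 were higher in excitatory libraries (49.3%, against 8.91% of all) and 4 in inhibitory libraries (5.80%, against 8.68%). Among these genes, the smallest p with the lower value in excitatory libraries was at Pcdh17, a protocadherin gene, with 6.65% and 17.1% against 19.2% and 30.0% (limma adjusted p = 0.155). Lrfn5, with 9 regions, was also among the 4, with 15.0% and 24.6% against 26.1% and 29.2% (limma adjusted p = 0.213). The median normalized difference of the 69 genes was 6.13 points, against −0.13 over all genes. Of the genes with 3 or more EGR1-positive counterparts, 31 of 226 were called higher in excitatory libraries and 1 in inhibitory libraries, with a median of 3.64 points, and the difference between the gene sets was not tested. Among genes with windows of at least 300 kb, 12 of 57 with 3 or more regions were called higher in excitatory libraries (21.1%), against 7 of 290 with none (2.41%). Among genes with at least 1 region, 60 of 944 were called higher in excitatory and 3 in inhibitory libraries. The calls rest on all 4 libraries, since without any 1 of them 0 of these genes passed, and 0 passed without quantile normalization or without the filter on cover. The differences themselves moved less: for Dpp10 they ranged from 27.6 to 30.8 points over the 4 fits that left out a library, and for Ptprd from 13.5 to 22.3.

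Of the listed genes with a region, H3K4me3 passed in excitatory libraries for 3 of the 5 excitatory forebrain neuron genes. Rasgrf2, a Ras exchange factor of upper-layer cortical neurons, had 19.2% and 29.8% in excitatory and 0% in both inhibitory libraries (limma adjusted p = 0.02). With cover in excitatory libraries alone it could enter the fit only by differing, so its call is a description. Ldb2 had 24.7% and 25.6% against 11.8% and 4.08% (adjusted p = 0.0403), and Pcp4, a calmodulin-binding protein gene, 18.6% and 20.4% against 7.16% and 2.25% (adjusted p = 0.0396). Cux2 and Sv2b did not pass, with 36.7% and 29.8% against 27.3% and 28.7% for Cux2. None of the 4 inhibitory neuron genes passed. At Reln, which encodes the secreted guidance protein reelin and is expressed by cerebellar granule neurons too, H3K27me3 covered 16.9% and 19.5% in excitatory against 0.263% and 0% in inhibitory libraries (limma adjusted p = 0.0555), the reverse of most genes holding these regions. For Gad1, the GABA-synthesizing enzyme gene, the H3K27me3 values were 24.7% and 18.2% against 24.6% and 27.7%, and overlapped. Of the 10 potassium channel genes 0 passed for H3K4me3, and of the 10 glutamate receptor genes 1 passed, Grid1, with 27.6% and 29.0% against 16.4% and 17.4% (adjusted p = 0.0446). Of 13 tested synaptic adhesion genes 2 passed, Nrxn3 and Ptprd, and of 3 GABA receptor genes 1 did, Gabrg3.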

How the data were processed

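CUT&RUN libraries were made from sorted nuclei with a commercial kit, per the labels' protocols, and each library's group and replicate were taken from its title. Tools named in the submitters' processing notes are MACS2 2.2.5, Bowtie2 2.3.5, Trim Galore 0.5.0, cutadapt 1.18, SAMtools 1.12 and Picard 2.25.0, on the build mm10, without settings or controls. The authors deposited 1 peak list per library, broad for H3K4me1 and H3K27me3 and narrow for the others, so replicates were not pooled for calling. For each peak the authors deposited a score, a fold enrichment (a ratio) and the −log10 of its p-value and q-value. Lists were used at the deposited threshold. Read counts are not held, so depth is unknown and no counting interval can be given.

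Peaks sharing at least 1 base were merged, and a library had a region if a peak of it lay there. Coordinates are 1-based on mm10. Genes came from RefSeq GRCm38.p6, the assembly of mm10, with no strand, so both gene ends were used. Percent cover was quantile-normalized over the 4 libraries of a mark and fitted for all regions or genes with limma 3.58.1 in R 4.3.3 (eBayes with trend, Benjamini-Hochberg, threshold 0.05), on features covered in at least 2 libraries. Levels in the text are not normalized, and differences are excitatory minus inhibitory on the normalized scale. Other work used Python 3.11.15. The fits were tested on simulated data. Shares over region sets were compared by exact permutation. Named genes are those with the most regions, the most per 100 kb, the largest calls or smallest p in each gene fit, and up to 4 per list. Regions named are those with the highest −log10 q of H3K27ac in the weaker library, the widest, and those leading the region fits. The text names a part of both. The regions and lists were chosen with earlier results of these data known. Libraries were not paired by replicate number in the main fits. The score entered no test.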

Additional observations from a re-analysis of the deposited data

How the results depend on the processing

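The number of regions was 1929 and became 151 and 0 with peaks at a −log10 p of at least 2 and 3, 897 when the lists of an antibody were trimmed to equal numbers of their strongest peaks, and 2255 to 21417 without 1 library. The differences in covered share of H3K27me3 and H3K4me3, and those between regions without and with EGR1, kept their direction under every alternative run, and no test of 2 against 2 libraries can go below 0.333. They also kept it for the 151 and 897 regions of the stricter choices, which were added after seeing the data (H3K27me3 −7.47 and −12.1 points, H3K4me3 4.45 and 4.87). Without 1 library H3K27me3 ranged from −10.6 to −7.29 points and H3K4me3 from 1.26 to 3.81.

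Counts of calls were less stable. For H3K4me3, 7 regions and 14 genes became 0 and 0 without quantile normalization and without the filter on cover. For regions the count was 0 with peaks at a −log10 p of at least 2, with the same number of peaks or with a 2 kb window, and 0 to 19 without 1 library. For genes it was 0 to 0 without 1 library and 63 for genes with 1 or more regions. For H3K27me3, 0 genes became 11 on the log2 scale and 32 with cover in all 4 libraries. The causes were not tested. With the replicate block, 17 H3K27me3 regions, 21 H3K4me3 regions and 24 H3K4me3 genes were called and 0 H3K27me3 genes. Libraries with the same number had deviations correlated at 0.0139 to 0.0477, and the main fits did not pair them. Such low correlations cannot show whether libraries with the same number shared an animal or a preparation. Of the 10 called genes named for H3K4me3, all 10 lost the call under 6 settings (no quantile normalization, no filter on cover and each library left out), 2 on the log2 scale and 1 with equal numbers of peaks, and 0 changed sign. Named regions were not refitted singly. A lone library left in a group was assumed to vary like the others. Depth is unknown, so absence of a peak does not show absence of a mark or of EGR1.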
